A study of Mus musculus with 2 samples.

Results

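The genes described here are 9 that mark the junctions, the transporters and the leakiness of brain blood vessels: Cldn5, Ocln, Tjp1, Mfsd2a, Slco1a4, Abcb1a, Cdh5, Pecam1 and Plvap. They were chosen by symbol, as a list, and all 9 were found among the 31253 features of the deposited matrices. Their raw molecule counts (unique molecular identifiers, UMIs) were summed per cell class and library, with venular and capillary endothelial cells kept apart. Infarcted mouse brain was dissected 3 days after tMCAO, a transient occlusion of the middle cerebral artery used as a stroke model, digested with collagenase and run on the BD Rhapsody single-cell platform. The flox library came from animals the sample title names by that word alone (the design text calls the comparison group WT), and the cKO library came from Hilpda conditional knockout animals. Hilpda encodes a lipid droplet protein that is induced by hypoxia. Both groups had the same injury and time point. The labels do not give the Cre driver, the cells in which Hilpda was deleted, or the number, sex and age of the animals.

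With 1 library per group, no difference between flox and cKO could be tested, and genotype cannot be told apart from animal, dissection, digestion or library preparation. Each level below is the share of a class's summed UMIs, in counts scaled to 1000000 (CPM), with an exact Poisson 95% interval, and each ratio has an exact conditional 95% interval. Both cover counting error only. A gene was counted as different where the ratio was at least 2-fold, its interval excluded equal levels and at least 10 UMIs were present over both sides; this is called the size rule. The flox library held 8593 barcodes and 67864602 UMIs, and the cKO library 7382 barcodes and 70665440 UMIs, with 56 barcode sequences present in both. After filters and removal of predicted doublets, 8065 flox and 6984 cKO cells were kept, with medians of 6997 and 8741 UMIs. Hilpda, flox before cKO, was at 40.0 and 38.4 CPM in capillary endothelial cells, 70.5 and 65.6 CPM in venular ones, 103 and 222 CPM in microglia-like cells and 470 and 268 CPM in monocyte or macrophage-like cells. Pairs of values below keep that order. The labels do not say which part of Hilpda was removed, so reads from its transcript do not check the labels.

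The blood-brain barrier is formed by endothelial cells that seal the gaps between them with tight junctions, suppress transcytosis and carry nutrients and drugs across by dedicated transporters. Cldn5 (claudin-5) and Ocln (occludin) are membrane proteins of the tight junction and Tjp1 (ZO-1) is the scaffold that ties them to actin, while Cdh5 (VE-cadherin) and Pecam1 (CD31) hold endothelial cells of all vessels together. Mfsd2a carries lysophosphatidylcholine-bound omega-3 lipids and restrains caveolar transcytosis, Slco1a4 carries organic anions and Abcb1a (P-glycoprotein) pumps drugs back into the blood. Plvap forms the diaphragms of fenestrae and caveolae and is characteristic of leaky vessels and of the developing brain before the barrier matures.

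Endothelial cells were separated by markers that held none of the 9 genes, and the 9 genes were also kept out of the clustering. Capillary endothelial cell-like cells, with Spock2 as their most abundant capillary marker, numbered 216 in flox and 82 in cKO. Venular endothelial cell-like cells, whose most abundant venular marker was Lrg1 in flox and Ackr1 in cKO, numbered 50 and 92. A larger group, 280 flox and 355 cKO cells, passed neither marker gate and is called here by its leading genes, Apln and Edn1. Endothelial markers were present in all of them (15 of 15 detected in each class and library). Clustered more finely (resolution 1), endothelial cells outside the marker gates fell into unlike clusters. A cluster of 47 flox and 102 cKO cells had a median of 1003 UMIs, 11.3% predicted doublets and Hba-a2 and Igkc as leading genes. Apln led another, of 54 and 84 cells, and Plvap was among the leading genes of a cluster of 98 and 62 cells. The summed capillary markers were at 14507 and 11157 CPM in capillary cells against 2013 and 1445 CPM in venular cells. The summed venular markers were at 10085 and 7979 CPM in venular cells against 1056 and 1150 CPM in capillary cells. Arterial cells were not kept apart. Summed arterial markers were at 577 and 442 CPM in capillary cells, 83.5 and 44.7 CPM in venular cells and 249 and 290 CPM in Apln- and Edn1-led cells. Median depth differed: 2860.5 and 3127.5 UMIs per capillary cell, 7642.5 and 12115.5 per venular cell, and 4556 and 5264 per Apln- and Edn1-led cell. Capillary cells were 2.68% of flox and 1.17% of cKO cells, and venular cells 0.620% and 1.32%. The part of the depth gap in these shares was not tested.

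Promoter windows, 250 bases before to 50 bases after the RefSeq start on GRCm38.p6, were found for 6 of the 9 genes. Those of Mfsd2a, Abcb1a and Slco1a4 are shown because these transporters were all highest in capillary cells, and that of Cldn5 because its level differed most between the libraries. Capitals mark the 4-base core bound by ETS factors, GGAA, and the core bound by TCF/LEF factors of the Wnt pathway, CTTTGA, on either strand.
Mfsd2a: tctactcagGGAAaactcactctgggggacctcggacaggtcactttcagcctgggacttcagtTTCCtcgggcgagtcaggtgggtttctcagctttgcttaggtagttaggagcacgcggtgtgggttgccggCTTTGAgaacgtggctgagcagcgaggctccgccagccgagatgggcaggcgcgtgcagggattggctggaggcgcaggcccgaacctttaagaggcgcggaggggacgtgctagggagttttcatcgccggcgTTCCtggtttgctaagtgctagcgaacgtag
Abcb1a: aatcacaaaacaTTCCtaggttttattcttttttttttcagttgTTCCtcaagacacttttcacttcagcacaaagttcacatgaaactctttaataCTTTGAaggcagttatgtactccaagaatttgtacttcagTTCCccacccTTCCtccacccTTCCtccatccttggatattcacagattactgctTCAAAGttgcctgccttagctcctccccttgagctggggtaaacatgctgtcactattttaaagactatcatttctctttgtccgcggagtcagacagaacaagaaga
Slco1a4: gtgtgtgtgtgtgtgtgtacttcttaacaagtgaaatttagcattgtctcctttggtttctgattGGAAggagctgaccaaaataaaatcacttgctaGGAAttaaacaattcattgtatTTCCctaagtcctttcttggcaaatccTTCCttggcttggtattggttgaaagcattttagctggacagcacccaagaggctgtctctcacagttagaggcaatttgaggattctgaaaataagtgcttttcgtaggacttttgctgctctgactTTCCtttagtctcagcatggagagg
Cldn5: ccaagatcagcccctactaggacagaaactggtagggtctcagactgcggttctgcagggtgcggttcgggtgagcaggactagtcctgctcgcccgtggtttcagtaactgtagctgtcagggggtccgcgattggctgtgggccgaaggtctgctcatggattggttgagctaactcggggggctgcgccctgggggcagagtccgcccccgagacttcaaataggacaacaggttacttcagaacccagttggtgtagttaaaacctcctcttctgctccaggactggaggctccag
The windows are chr4:122961139-122961438 on the minus strand for Mfsd2a, chr5:8566841-8567140 on the plus strand for Abcb1a, chr6:141856171-141856470 on the minus strand for Slco1a4 and chr16:18776597-18776896 on the plus strand for Cldn5. The GGAA core, which 96.0% of 32851 promoters of the same length hold, occurred 3 times for Mfsd2a, 5 times for Abcb1a, 5 times for Slco1a4 and 0 times for Cldn5. The CTTTGA core, held by 16.0% of promoters, occurred 1 time for Mfsd2a, 2 times for Abcb1a and 0 times for Slco1a4 and Cldn5. The 3 windows found for Tjp1 and Ocln held 3, 2 and 2 GGAA cores and 0 CTTTGA cores. These are letter matches and not binding sites. The RefSeq start of Abcb1a lies 93.0 kb upstream of the start in the GENCODE annotation, so its window belongs to 1 of several possible starts.

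**Figure D1:**
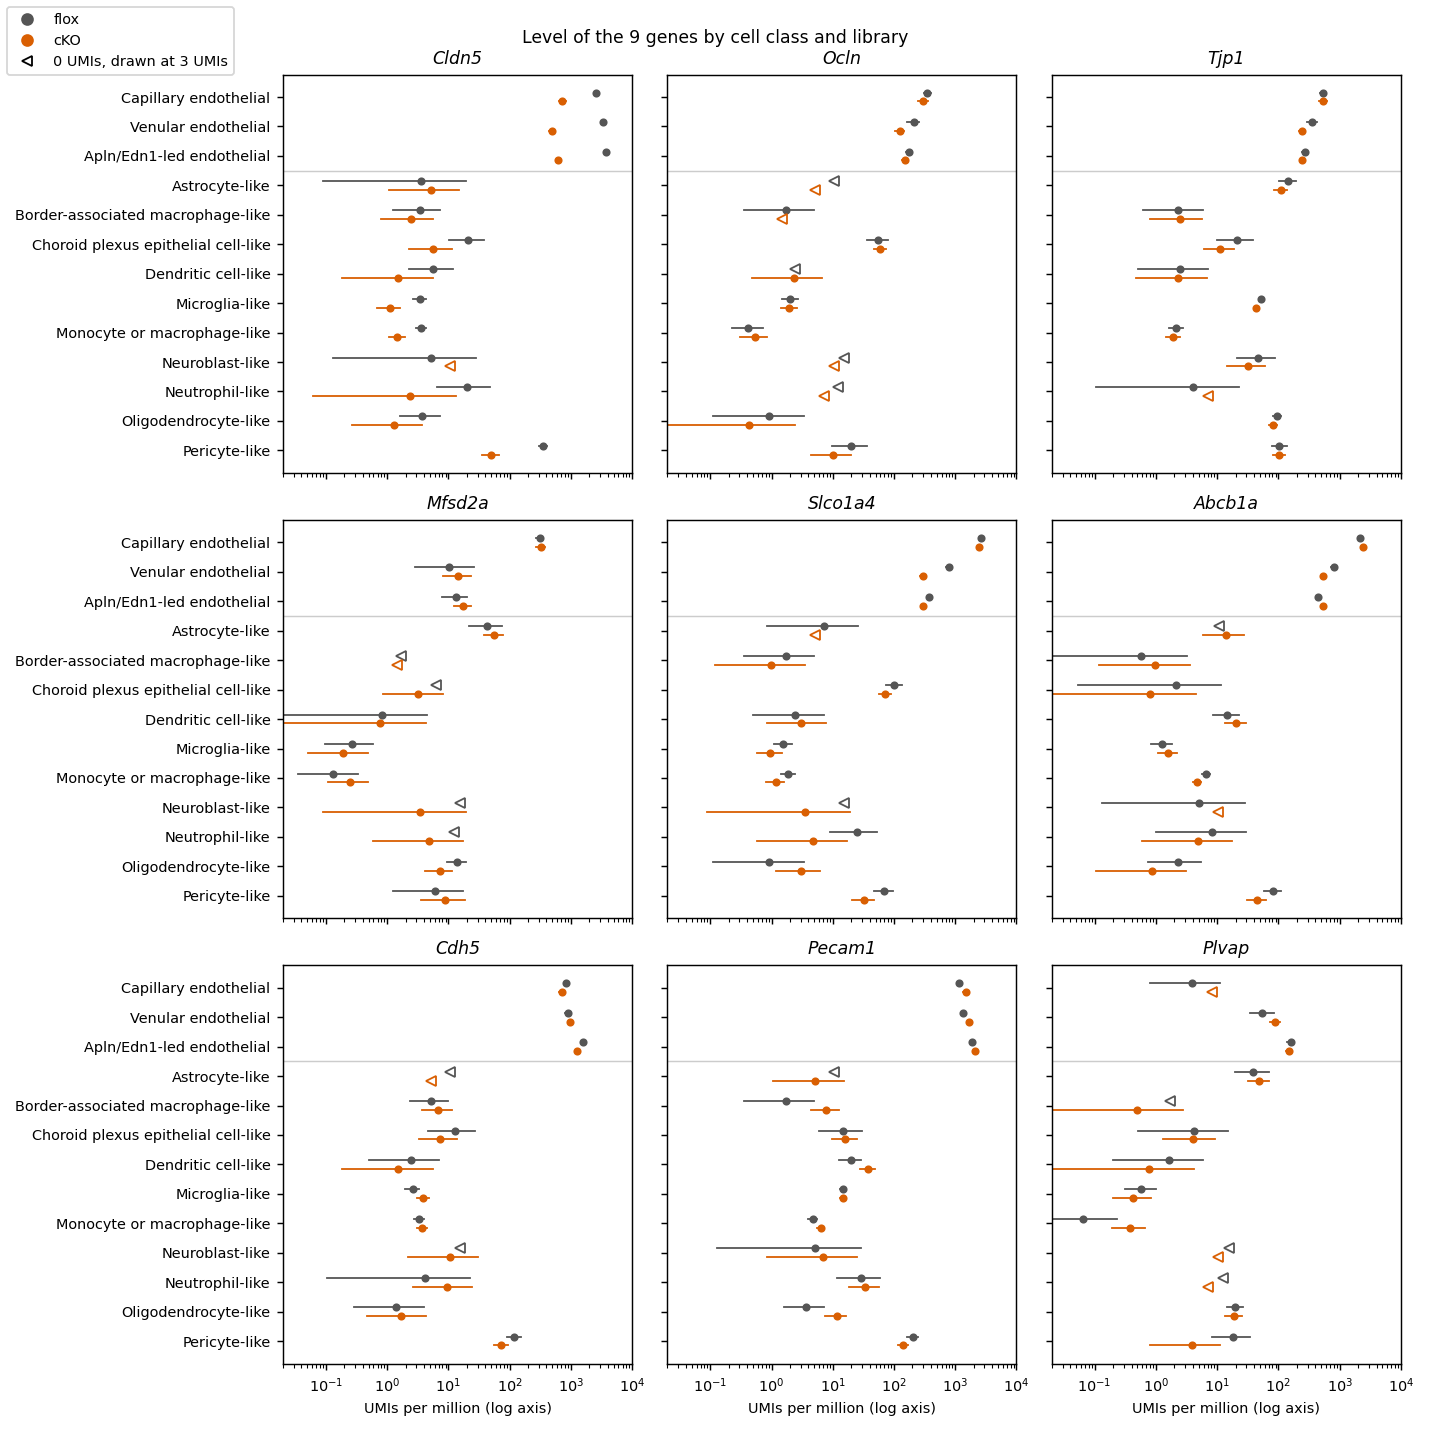
Level of each gene (CPM, log axis) in the 13 cell classes with at least 50 cells in both libraries, flox in grey and cKO in orange, with exact Poisson 95% intervals (bounds under 0.02 are cut at the axis) and open triangles where no UMI was counted, drawn at 3 UMIs. Endothelial classes are above the line. Cldn5 shows the widest gap between flox and cKO in the 3 endothelial classes, and Mfsd2a is high in capillary cells alone among them.

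Cldn5 was the junction gene with the largest difference between the libraries. The gene lies at chr16:18776847-18778262 on the plus strand (ENSMUSG00000041378, GRCm38, as are all gene positions here). In capillary cells its level was 2602 CPM in the flox library (95% interval 2489 to 2718) against 727 CPM in the cKO library (642 to 820). In venular cells it was 3339 CPM (3158 to 3527) and 489 CPM (448 to 532), and in Apln- and Edn1-led cells 3688 CPM (3592 to 3786) and 626 CPM (595 to 659). The flox library was thus the higher one in every endothelial class, with intervals far apart. The log2 ratio of cKO over flox was −1.84 (−2.03 to −1.65) in capillary, −2.77 (−2.92 to −2.63) in venular and −2.56 (−2.64 to −2.47) in Apln- and Edn1-led cells. Endothelial cells, here with a small cluster of mixed endothelial and myeloid genes added, held 95.4% of all Cldn5 UMIs in flox and 94.6% in cKO.

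The difference in Cldn5 was also seen cell by cell. With every cell thinned to 1000 UMIs, a Cldn5 UMI was present in 88.8% of 196 flox (83.5% to 92.8%, exact Clopper-Pearson) and 55.3% of 76 cKO capillary cells (43.4% to 66.7%). In venular cells the shares were 93.3% of 45 and 33.3% of 87, and in Apln- and Edn1-led cells 92.4% of 251 and 45.6% of 285. Thinning left out 20 and 6 capillary, 5 and 5 venular, and 29 and 70 Apln- and Edn1-led cells. Without thinning the shares were 95.8% and 73.2%, 100% and 85.9%, and 97.1% and 75.2%. Microglia-like cells, which should lack claudin-5, had a UMI in 0.555% of flox and 0.139% of cKO cells at the same 1000 UMIs. The endothelial shares were well above that background in both libraries.

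Outside the endothelium Cldn5 levels were lower than in endothelial cells. They were lower in cKO past the size rule in pericyte-like, microglia-like, monocyte or macrophage-like and choroid plexus epithelial cell-like cells. Of all tested genes, 5.98% were lower in this way in microglia-like, 5.34% in monocyte or macrophage-like and 5.12% in choroid plexus epithelial cell-like cells. Choroid plexus epithelial cell-like cells held 10 and 7 Cldn5 UMIs (21.1 and 5.61 CPM, log2 ratio −1.91, −3.54 to −0.37). Astrocyte-like cells held 1 and 3 UMIs, and B cell-like and T or NK cell-like cells 0 in both libraries. Pericyte-like cells had 352 and 49.8 CPM (log2 ratio −2.82, −3.36 to −2.32), and they also carried the endothelial genes Cdh5 (117 and 72.8 CPM) and Pecam1 (203 and 139 CPM). Microglia-like cells had 3.42 and 1.10 CPM (−1.64, −2.38 to −0.95), and monocyte or macrophage-like cells 3.59 and 1.48 CPM (−1.28, −1.81 to −0.78). Ependymal cell-like cells had 32 UMIs in 40 flox cells and 0 UMIs in 30 cKO cells. The same ependymal cell-like cells held 21 and 1 Pecam1, 14 and 1 Cdh5 and 9 and 0 Slco1a4 UMIs, but 11 and 11 Tjp1 and 3 and 3 Mfsd2a UMIs. In pericyte-like cells 3 of 9 members were past the size rule as lower (Cldn5, Slco1a4 and Plvap) and 0 as higher, beside 5.06% and 2.92% of all tested genes there. The part of endothelial RNA in the counts of pericyte-like, ependymal cell-like and the other classes outside the endothelium was not tested.

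Some genes were lower in the cKO library in each of 6 classes examined for them, the 3 endothelial classes and microglia-like, monocyte or macrophage-like and oligodendrocyte-like cells, and these values belong beside the Cldn5 ratio. Rps19, a ribosomal protein gene, had a log2 ratio of −2.91 in capillary, −2.41 in venular, −2.72 in microglia-like and −2.51 in oligodendrocyte-like cells. Gpx4, which removes lipid peroxides, had −2.83, −3.25, −2.73 and −2.59 in the same classes, and Gnb2, a G protein subunit, −2.95, −3.20, −3.80 and −3.04. The ratio also varied with base composition at the end of the transcript. Among the tested genes in the highest of 10 bins of GC content in the last 500 bases (from 53.8% GC in capillary and venular cells and 54% in Apln- and Edn1-led cells), the median log2 ratio was −0.41 in capillary, −0.33 in venular and −0.46 in Apln- and Edn1-led cells, and 28.8%, 29.3% and 32.1% of those genes were at least 2-fold lower. Cldn5, with 55% GC, lies in that bin. Its ratio minus the median of the bin was −1.43, −2.44 and −2.10. Plvap, with 54% GC, lies in it too and was at 0.69 (−0.00 to 1.45) in venular and −0.11 (−0.35 to 0.14) in Apln- and Edn1-led cells. Of the 880 genes in the bin in capillary cells, 116, Cldn5 included, had a ratio as low as that of Cldn5; in venular cells it was 24 of 881. A loss of Cldn5 reads that affects the library as a whole and a lower Cldn5 transcript level cannot be told apart with 1 library per group.

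**Figure D2:**
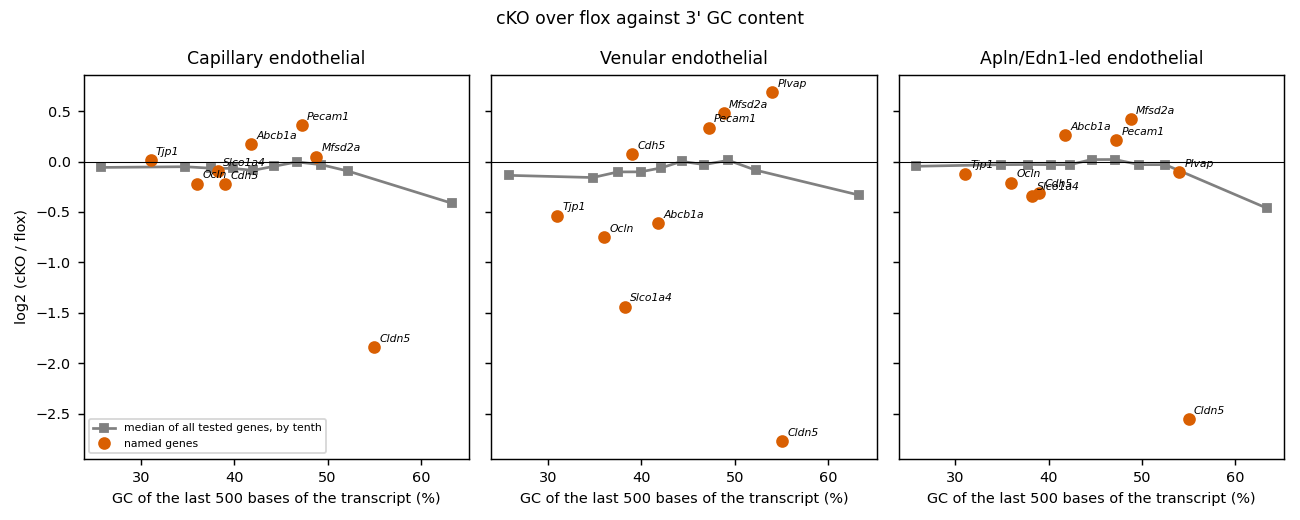
Log2 ratio of cKO over flox against the GC content of the last 500 bases of the transcript (%), in 3 endothelial classes. Grey squares are medians of all tested genes in 10 bins of GC content, drawn at the middle of each bin, and orange points are the listed genes with at least 10 UMIs. The last bin lies at −0.41, −0.33 and −0.46, and Cldn5 lies below it in each panel.

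Ocln and Tjp1, the other 2 tight junction genes, were higher in capillary than in venular cells in both libraries. In venular cells the difference between the libraries was close in size to the flox difference between these classes. Ocln (ENSMUSG00000021638, chr13:100496507-100552718, minus strand) was at 352 CPM (312 to 396) and 302 CPM (248 to 364) in capillary cells, and at 209 CPM (166 to 260) and 124 CPM (104 to 147) in venular cells. The cKO over flox ratio was −0.22 on the log2 scale in capillary and −0.75 in venular cells, under the size rule in both. Capillary cells were the higher class in both libraries, and the venular over capillary ratio was −0.75 (−1.13 to −0.39) and −1.28 (−1.66 to −0.91). Ocln was also counted in choroid plexus epithelial cell-like cells, at 54.8 and 60.1 CPM, and in ependymal cell-like cells, with 40 UMIs in 40 flox and 21 UMIs in 30 cKO cells.

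Tjp1 (ENSMUSG00000030516, chr7:65296165-65527781, minus strand) was at 535 CPM (485 to 589) and 541 CPM (468 to 622) in capillary cells, a ratio of 0.01 (−0.24 to 0.26). In venular cells it was at 355 CPM (298 to 420) and 244 CPM (216 to 275), a ratio of −0.54 (−0.84 to −0.23), under the size rule. Its venular over capillary ratio was −0.59 (−0.88 to −0.31) in flox and −1.15 (−1.42 to −0.87) in cKO. Tjp1 was the least endothelial of the 9 genes: endothelial cells, again with the mixed cluster added, held 37.5% of its UMIs in flox and 42.2% in cKO. Astrocyte-like cells had 141 and 109 CPM, oligodendrocyte-like cells 95.2 and 81.5 CPM, pericyte-like cells 104 and 103 CPM, and microglia-like cells 51.7 and 42.5 CPM, against 2.14 and 1.92 CPM in monocyte or macrophage-like cells. The microglial level was thus far above that of the infiltrating myeloid cells in both libraries.

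Among the transporters, Mfsd2a drew the sharpest line between capillary and other endothelial cells. The gene (ENSMUSG00000028655, chr4:122946850-122961188, minus strand) was at 311 CPM (273 to 353) and 321 CPM (266 to 385) in capillary cells, so that the libraries differed by 0.05 on the log2 scale (−0.28 to 0.37). Venular cells held 4 and 16 UMIs (10.4 and 14.6 CPM), and Apln- and Edn1-led cells 20 and 41 UMIs (13.1 and 17.6 CPM). Its venular over capillary ratio was −4.90 (−6.78 to −3.52) in flox and −4.46 (−5.31 to −3.70) in cKO. At 1000 UMIs per cell, a Mfsd2a UMI was present in 25% of flox and 30.3% of cKO capillary cells and in 0 of 45 and 0 of 87 venular cells, which allows shares of cells with a UMI at this depth of up to 6.67% and 3.45% by the limit of 3 counts (exact upper bounds 7.87% and 4.15%). Without thinning the capillary shares were 49.5% and 57.3% and the venular shares 6% and 12%. Microglia-like cells had a UMI in 0.0463% of flox cells and in 0 of 1441 cKO cells at the same depth. Astrocyte-like cells were the next class in order, at 42.4 and 55.2 CPM, and oligodendrocyte precursor-like cells held 24 and 21 UMIs.

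Slco1a4 (ENSMUSG00000030237, chr6:141805440-141856199, minus strand) was at 2663 CPM (2550 to 2781) and 2489 CPM (2330 to 2657) in capillary cells, a log2 ratio of −0.10 (−0.21 to 0.02). In venular cells it was at 794 CPM (707 to 888) and 293 CPM (261 to 326), a ratio of −1.44 (−1.67 to −1.21) that was past the size rule. In Apln- and Edn1-led cells it was at 376 and 298 CPM. The venular difference depended on how the class was drawn: it was −0.90 without cells that held a myeloid marker UMI, −0.68 at a coarser clustering and −0.69 with clusters made from all cells, all under the size rule. The coarser clustering drew a venular class of 344 and 450 cells, and clusters of all cells 292 and 348, in place of 50 and 92. Both thus took in many endothelial cells from outside the main venular class. At 1000 UMIs per cell, 46.7% of 45 flox (31.7% to 62.1%) and 25.3% of 87 cKO venular cells (16.6% to 35.7%) had a Slco1a4 UMI, against 89.8% and 86.8% of capillary cells; without thinning the shares were 82.0% and 69.6%, and 95.8% and 95.1%. Microglia-like cells had one in 0.278% and 0.0694% of cells. Choroid plexus epithelial cell-like cells were the highest class outside the endothelium, with 101 and 72.1 CPM. Slco1a5 and Slco1a6 are close copies of Slco1a4, and the labels do not say how reads were divided among them.

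Abcb1a (ENSMUSG00000040584, chr5:8660077-8748575, plus strand) was at 2117 CPM (2015 to 2222) and 2382 CPM (2227 to 2546) in capillary cells, a ratio of 0.17 (0.05 to 0.29). In venular cells it was at 817 CPM (729 to 913) and 535 CPM (493 to 580), a ratio of −0.61 (−0.81 to −0.41), and in Apln- and Edn1-led cells at 446 and 536 CPM. The ratio was thus above equality in capillary and below it in venular cells, in neither past the size rule. Its venular over capillary ratio was −1.37 (−1.55 to −1.20) in flox and −2.15 (−2.31 to −2.00) in cKO. Outside the endothelium, fibroblast-like cells held 18 UMIs in 34 flox and 135 UMIs in 101 cKO cells. Abcb1b, its close copy, had 0 UMIs in flox and 4 UMIs in cKO capillary cells. It was at 15.7 and 13.7 CPM in venular and 23.0 and 19.3 CPM in Apln- and Edn1-led cells. In microglia-like cells Abcb1b was at 33.3 and 27.4 CPM, where Abcb1a was at 1.24 and 1.57 CPM. Abcb1b was also at 23.4 and 25.4 CPM in border-associated macrophage-like and 19.5 and 33.6 CPM in dendritic cell-like cells.

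Cdh5 and Pecam1, the genes shared by endothelial cells of all vessels, differed little between the libraries and had the reverse order of classes. Cdh5 (ENSMUSG00000031871, chr8:104101625-104144511, plus strand) was at 844 CPM (780 to 911) and 722 CPM (637 to 815) in capillary cells, at 911 and 956 CPM in venular cells and at 1555 and 1254 CPM in Apln- and Edn1-led cells. Pecam1 (ENSMUSG00000020717, chr11:106654217-106750628, minus strand) was at 1152 CPM (1077 to 1230) and 1477 CPM (1354 to 1607) in capillary cells, at 1347 and 1697 CPM in venular cells and at 1846 and 2135 CPM in Apln- and Edn1-led cells. The cKO over flox ratio lay between −0.31 and 0.07 for Cdh5 and between 0.21 and 0.36 for Pecam1 over the 3 classes, under the size rule in each. Both genes were highest in Apln- and Edn1-led cells and lowest in capillary cells in both libraries, although the Cdh5 intervals of venular and capillary cells overlapped in flox.

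Cdh5 was also present in fibroblast-like cells, with 81 UMIs in 34 flox and 408 UMIs in 101 cKO cells, or 336 and 340 CPM. Pecam1 in the same cells had 9 and 3 UMIs and Cldn5 12 and 2 UMIs, so that in cKO the 2 other endothelial genes were near 0 where Cdh5 was not. A B cell-like cluster held 18 and 19 Cdh5 UMIs in 30 and 18 cells, with 0 Cldn5 UMIs in both libraries and 6 and 9 Pecam1 UMIs. Gm29682, an antisense gene that overlaps Cdh5 on the other strand, had 0 UMIs in every cell class of both libraries, so it is no check on the fibroblast counts. Pecam1, which leukocytes also carry, was at 19.5 and 37.5 CPM in dendritic cell-like, 28.7 and 33.6 CPM in neutrophil-like and 14.6 and 14.6 CPM in microglia-like cells.

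Plvap was absent or nearly absent from capillary cells and present in the other endothelial cells. Capillary cells held 3 UMIs in flox and 0 UMIs in cKO. Venular cells held 21 UMIs (54.8 CPM, 33.9 to 83.8) and 97 UMIs (88.4 CPM, 71.7 to 108), and Apln- and Edn1-led cells 243 UMIs (160 CPM, 140 to 181) and 346 UMIs (148 CPM, 133 to 165). Capillary cells were thus the lowest of the 3 classes for Plvap and the highest for Mfsd2a. Apln- and Edn1-led cells exceeded capillary cells by 5.37 on the log2 scale in flox (3.80 to 7.65). In cKO the level was 18.0-fold higher with 3 UMIs set in place of the 0 capillary UMIs, and the exact lower bound was 3.86 on the log2 scale. Venular cells exceeded capillary cells by 3.82 in flox (2.08 to 6.21). In cKO they were 10.7-fold higher in the same way, with an exact lower bound of 3.10 on the log2 scale. With each cell gated by its own markers the venular over capillary ratio was −0.48 in flox and 0.05 in cKO, so this contrast depended on how the classes were drawn. The cKO over flox ratio was 0.69 (−0.00 to 1.45) in venular and −0.11 in Apln- and Edn1-led cells, under the size rule.

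At 1000 UMIs per cell, few cells held a UMI of Plvap or of Mfsd2a, and overlaps are small at this depth. In flox, 35 of 492 endothelial cells had a Plvap UMI, 54 had a Mfsd2a UMI and 1 had both; in cKO the numbers were 38, 24 and 0 of 448. Mfsd2a and Slco1a4, both highest in capillary cells, were found together in 48 of the 54 flox and 18 of the 24 cKO cells with Mfsd2a. A Slco1a4 UMI was present in 260 of all 492 flox and 144 of all 448 cKO cells. Without thinning, Plvap and Mfsd2a were found together in 8 of 546 flox and 18 of 529 cKO cells. Plvap was then present in 120 and 167 of these cells and Mfsd2a in 126 and 88. A Plvap UMI was present in 13.9% of flox and 10.5% of cKO Apln- and Edn1-led cells, 8.89% and 6.90% of venular cells, and 0.510% and 0% of capillary cells, where 0 of 76 cells allows up to 3.95% by the limit of 3 counts (exact upper bound 4.74%). Microglia-like cells had one in 0.139% of cells in both libraries; without thinning the shares were 37.5% and 35.8%, 26.0% and 43.5%, 0.926% and 0%, and 0.552% and 0.620%. Plvap UMIs were also counted in astrocyte-like cells, at 38.9 and 48.3 CPM, and at 19.9 and 18.8 CPM in oligodendrocyte-like cells. Plvap (ENSMUSG00000034845, chr8:71497765-71511752, minus strand) shares 1819 bases at its end with Gtpbp3 on the other strand, and the labels do not say whether reads were counted by strand. Gtpbp3 was at 28.3 and 13.8 CPM in astrocyte-like, 25.9 and 17.1 CPM in oligodendrocyte-like, 20.6 and 2.74 CPM in capillary and 13.8 and 15 CPM in Apln- and Edn1-led cells. Venular cells held 2 and 22 Gtpbp3 UMIs (5.22 and 20.1 CPM). The Plvap levels outside the endothelium are thus uncertain. In astrocyte-like cells the intervals of Plvap and Gtpbp3 were 19.4 to 69.6 and 12.2 to 55.7 CPM in flox. In cKO they were 32.1 to 69.8 and 5.95 to 27.2 CPM. The part of Gtpbp3 in the Plvap counts of any class and in their cKO over flox ratios was not tested.

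**Figure D3:**
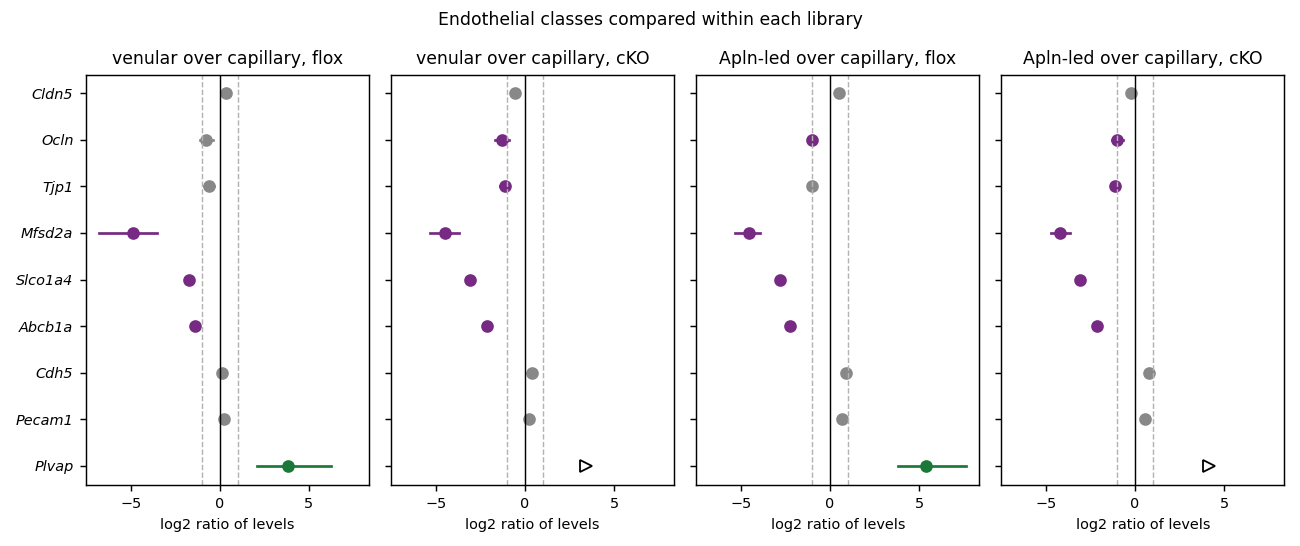
Log2 ratio of venular over capillary cells and of Apln- and Edn1-led (Apln-led) over capillary cells in each library, with exact conditional 95% intervals. Purple and green points are lower and higher past the size rule, grey points are under it, dashed lines mark 2-fold, and open triangles are lower bounds against 0 UMIs. Mfsd2a, Slco1a4 and Abcb1a lie left of the dashed lines in all 4 panels and Plvap lies right of them.

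Set against all genes, the venular to capillary contrast was broad. Past the size rule in venular over capillary cells were 1 higher and 3 lower members of 9 in flox, where 6.14% of 8710 tested genes were higher and 9.33% were lower, and 1 higher and 5 lower members in cKO, where 6.62% of 8719 were higher and 12.1% were lower. The members lower in both were Mfsd2a, Slco1a4 and Abcb1a, and Ocln and Tjp1 were past the rule in cKO alone; whether the libraries differ in this was not tested. In Apln- and Edn1-led over capillary cells, 1 member was higher and 4 were lower in flox (background 5.09% higher and 8.32% lower of 9857), and 1 was higher and 5 were lower in cKO (4.44% and 7.78% of 9734). Cells were assigned by genes that vary together with these members, so the contrast between classes is a description and the share of all genes is its scale.

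Cldn5 stood apart from this order. Its venular over capillary ratio was 0.36 (0.26 to 0.46) in flox and −0.57 (−0.79 to −0.36) in cKO, so that the highest flox levels were in Apln- and Edn1-led and venular cells and the highest cKO level was in capillary cells, whose interval overlapped that of Apln- and Edn1-led cells.

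**Figure D4:**
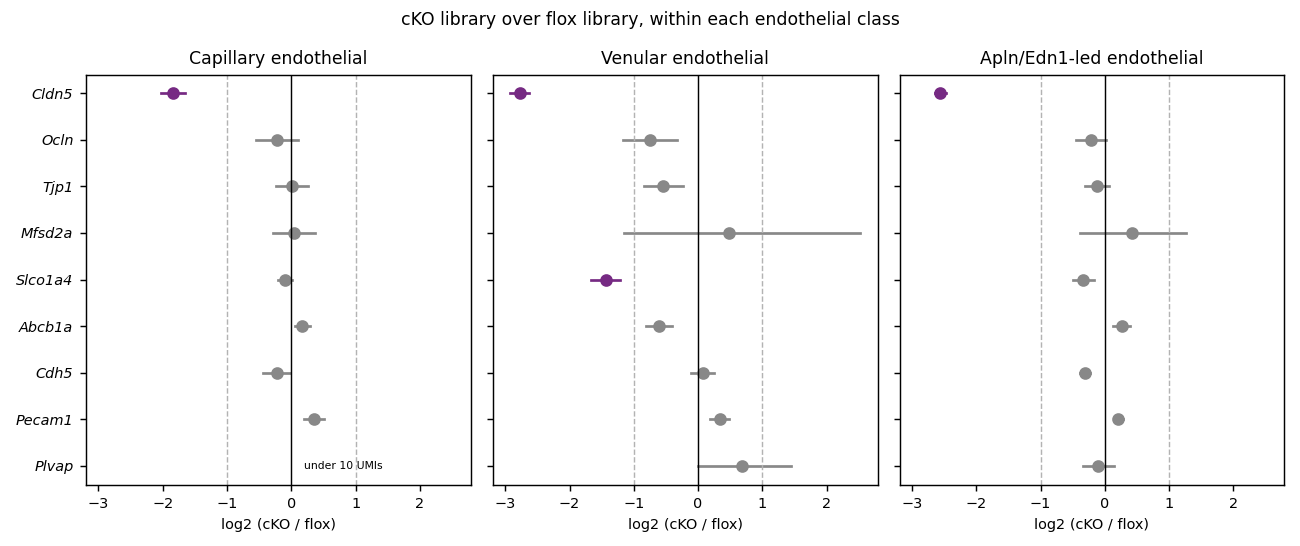
Log2 ratio of the cKO over the flox library for each gene in 3 endothelial classes, with exact conditional 95% intervals (counting error only). Purple points are lower past the size rule and grey points are under it; dashed lines mark 2-fold. Cldn5 is lower in all 3 classes (−1.84, −2.77 and −2.56) and Slco1a4 in venular cells (−1.44).

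Between the libraries, few members were past the size rule. In capillary cells 0 members were higher and 1 was lower of 8 with enough UMIs, beside 1.32% of 8556 tested genes higher and 4.39% lower. In venular cells 0 were higher and 2 were lower of 9, beside 1.55% and 6.43% of 8761 genes, and in Apln- and Edn1-led cells 0 and 1 of 9, beside 1.05% and 5.61% of 10421 genes. More genes were lower than higher in cKO in all 3 classes. When all endothelial cells were pooled instead, Mfsd2a (−1.11, −1.39 to −0.83) and Slco1a4 (−1.11, −1.20 to −1.03) were past the rule as lower in cKO too, while neither was past it within capillary cells (0.05 and −0.10) and capillary cells were 216 of the flox and 82 of the cKO endothelial cells.

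**Figure D5:**
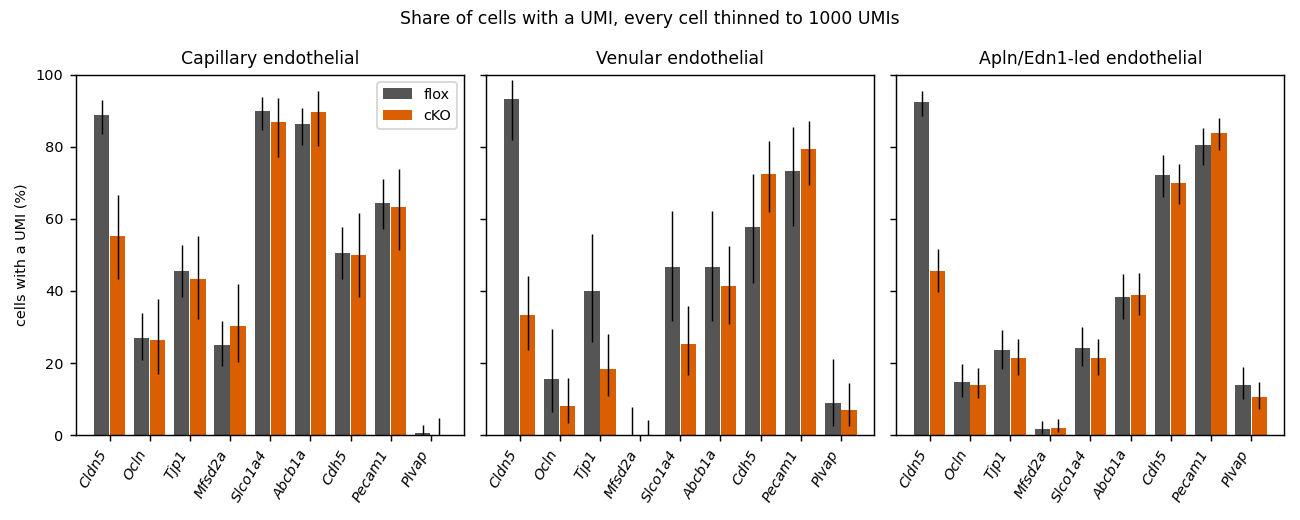
Share of cells with a UMI of each gene (%) in 3 endothelial classes, with every cell thinned to 1000 UMIs, flox in grey and cKO in orange, and exact Clopper-Pearson 95% intervals. The Cldn5 bars of flox (88.8%, 93.3% and 92.4%) exceed those of cKO (55.3%, 33.3% and 45.6%) in each class.

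Other genes of the barrier were compared between venular and capillary cells in the same way, with 6.14% of all tested genes higher and 9.33% lower in flox and 6.62% and 12.1% in cKO as the background for each list. Of 27 barrier transporters and receptors, 12 were lower and 2 higher in venular than capillary cells of 22 tested in flox, and 13 lower and 3 higher of 24 in cKO; the list's median log2 ratio was −1.55 and −1.48, beside −0.14 and −0.13 over all tested genes. Among those with the most UMIs, Slco1c1, a thyroxine carrier, was at −2.70 and −3.64, Slc7a5, which carries large neutral amino acids, at −2.28 and −2.90, and Slc6a6, the taurine transporter, at −1.67 and −2.02. Slc2a1, the glucose transporter GLUT1, was past the rule in cKO, at −1.21. Slc38a5, a glutamine transporter, was higher in venular cells, at 1.43 and 1.36.

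Of 22 Wnt pathway and barrier transcription factor genes, 10 were lower and 1 higher in venular cells in flox and 12 lower and 1 higher in cKO, of 21 tested in each, with medians of −0.91 and −1.22. Lef1, a nuclear effector of Wnt signalling, was at −1.56 and −1.39, Sox17 at −2.11 and −2.67, and Foxq1 at −1.23 and −2.02. Of 25 junction partners, Cgnl1, a junction scaffold, was lower in both (−1.20 and −1.59), and Ildr2 and Jup were past the rule in cKO; the other 16 of 17 tested in flox and 13 of 16 in cKO were not past it, a share of calls in flox that is below that of all genes. Of 12 genes of caveolae and vesicle traffic, Cavin3 and Ehd4 were higher in venular cells and Cavin2 and Dnm2 were lower in both libraries. Of 15 genes of sprouting and activated endothelium, 4 were higher and 6 lower in flox and 3 and 5 in cKO; Igfbp3, which binds insulin-like growth factors, was higher in venular cells, at 4.03 and 3.22, and Pdgfb, which recruits pericytes, was lower, at −1.41 and −1.34.

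Between the libraries, 0 of the 80 listed genes tested in capillary cells were past the size rule as higher and 3 as lower (3.75%, beside 4.39% of all tested genes). In venular cells 1 of 81 was higher (1.23%, beside 1.55%) and 5 were lower (6.17%, beside 6.43%), so that both counts were near the share of all genes. Slc38a3, also a glutamine transporter, was at 386 and 54.9 CPM in capillary cells (−2.81, −3.54 to −2.16) and at 99.2 and 16.4 CPM in venular cells (−2.60, −3.49 to −1.75). Dnm2, the dynamin of endocytosis, was lower in both classes (−1.22 and −1.64), and Dll4, a Notch ligand, in capillary cells (−1.26). In venular cells Lrp5 (−1.29), Ppard (−1.16) and Igfbp3 (−1.99) were lower and Plaur, the urokinase receptor, was higher (1.62, 0.82 to 2.53). The medians of the 5 lists lay between −0.72 and 0.10 in capillary and between −0.26 and 0.23 in venular cells, beside −0.08 and −0.10 over all tested genes.

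Over all genes with at least 100 CPM in the higher library, the largest differences in venular cells were in genes induced by interferon: Cxcl10, a chemokine, was at 989 and 38.3 CPM (−4.69, −5.19 to −4.23), and Rsad2 at 561 and 39.2 CPM, with Cmpk2, Isg15 and Ifit2 the other 3 of the lowest 5. Elsewhere these genes differed among themselves: in capillary cells Cxcl10 was at −0.38 and Cmpk2 and Rsad2 were at −1.08 each, and Isg15 was at 69.6 CPM in flox and 0 UMIs in cKO. Isg15 was lower in cKO also in Apln- and Edn1-led (−2.86), microglia-like (−2.33) and monocyte or macrophage-like cells (−2.63), where Cxcl10 was at 0.23, 0.11 and −0.11. The highest 5 in venular cells were Plaur, Col15a1, Fkbp10, Gsk3a and Lcn2. In capillary cells the highest were Vtn, Scgb3a1, Fam43a, Ccn1 and Edn1, and the lowest Ppbp, Nrgn, Gnb2, Rps19 and Gpx4. Vtn is a pericyte marker and Ppbp a platelet gene. Summed pericyte markers were at 276 and 535 CPM in capillary cells, and summed platelet markers at 125 and 0 CPM. Clustered more finely (resolution 1), endothelial cells gave an arterial cluster of 26 flox and 15 cKO cells with Ppbp among its leading genes. The part of pericytes, platelets and arterial cells in the capillary values was not tested.

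Across the 13 classes in both libraries, the genes whose log2 levels followed each member most closely were ranked by Pearson correlation. The 26 points share their libraries and depth, and some of these genes were common to more than 1 member. They were Ushbp1, Ly6c1 and She for Cldn5 (0.97, 0.95 and 0.95) and Robo4, Adgrl4 and Fgd5 for Cdh5 (0.98, 0.98 and 0.97). Paqr5 and St6galnac2 were close to Slco1a4 (0.97 and 0.95), Slc9a2, Ptprb and Flt1 to Abcb1a (0.96, 0.96 and 0.96), and Rapgef3, Mcc and Itih5 to Mfsd2a (0.90, 0.88 and 0.86). For Ocln they were Mecom, Igsf5 and Pir (0.96 each), for Tjp1 Tspan9 and Jam2 (0.96 and 0.94), for Pecam1 Ly6a, Robo4 and Ly6c1 (0.965, 0.961 and 0.959), and for Plvap Acat3, Igfbp3 and Apln (0.89, 0.87 and 0.86). Robo4 and Ly6c1 were among the markers that placed cells in the endothelial class, as were Adgrl4, Ptprb and Flt1, and Itih5 among those of capillary cells.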

How the data were processed

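The deposited files hold raw UMI counts per gene and cell barcode, without normalization, for 1 flox and 1 cKO library; the submitters' processing notes name CASAVA 1.8, STARsolo, Seurat and the mm10 build, with no settings. Cells with at least 500 UMIs, 200 genes and at most 25% mitochondrial UMIs were kept, and predicted doublets (Scrublet in scanpy 1.11.5, expected rate 6%) were left out of all sums though not of the clustering. Both libraries were clustered together on 2000 variable genes, 30 components and 20 neighbours (Leiden, resolution 1), without the members and listed genes, giving 27 clusters; endothelial cells were clustered again at resolution 0.3. A cluster of 15 flox and 11 cKO cells with endothelial and myeloid genes, 71.1% predicted doublets, was left out of the endothelial classes. It was counted in the shares of a gene's UMIs held by endothelial cells. Classes were named by their markers; the resolution and the marker threshold were chosen after clusters were seen. Classes with under 50 cells in a library are given as counts. Levels are CPM of summed counts. The counting code was tested on simulated data.

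The members and gene lists were chosen with earlier results of these data known. Named beside the members are the 3 genes most like each, listed genes past the size rule (the 6 with the most UMIs where there were more, of which some are described) and the 5 highest and 5 lowest ratios; some genes under this rule are not reported here. Alternatives changed the gate, clustering, mitochondrial limit, doublets, scaling (TMM in edgeR 4.0.16), weighting, GC and thinning.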

Additional observations from a re-analysis of the deposited data

Results flagged for a closer look

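In 2 cases a member moved in opposite directions in the contrasts compared, with counting intervals on either side of equality; neither difference could be tested with 1 library per group. The venular over capillary ratio of Cldn5, the tight junction claudin, was 0.36 on the log2 scale in flox and −0.57 in cKO. The cKO over flox ratio of Abcb1a, the drug efflux pump, was −0.61 in venular and 0.17 in capillary cells, and both were under the size rule. For Cldn5 the sign was the same in all 10 alternatives tried in each library, from 0.13 to 0.63 in flox and from −0.81 to −0.30 in cKO. For Abcb1a, 11 of 12 alternatives kept the sign in venular and 10 of 12 in capillary cells.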

How the results depend on the processing

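Cldn5 stayed past the size rule as lower in cKO in all 12 alternatives, from −2.86 to −2.44 in venular and from −2.48 to −1.43 in capillary cells, and Slco1a4 in venular cells in 9 of 12, from −1.59 to −0.68. Mfsd2a and Slco1a4 stayed lower in venular than capillary cells past the rule in all 10 alternatives in each library. When each cell was gated by its own markers, which gave 377 and 266 capillary and 93 and 156 venular cells, Plvap in flox reversed to −0.48 in venular over capillary cells, and 2 members were past the rule in flox and 2 in cKO in place of 4 and 6; the cause was not tested. The number of members past the rule in venular cKO over flox was 1 in place of 2 at endothelial resolution 0.1 and also with clusters of all cells, an alternative added after seeing the data. In both, the venular class was far larger (344 and 450 cells, and 292 and 348) and took in other endothelial cells. The number was 3 in place of 1 in capillary cells when all endothelial cells were pooled, also added later. A 1.5-fold rule counted 16 listed genes in venular and 7 in capillary cells in place of 6 and 3. The other 49 counts of members or of all listed genes under the alternatives were within 1.5 times the main ones. Values of single genes, single lists and shares of cells were judged by the main interval or the same limit. Of these, 409 stayed within it, 202 moved outside it and 1, Plvap in flox, reversed. Plvap in venular cKO over flox ranged from −0.23 to 1.46 and was past the rule in 3 of 12 alternatives. Shares of cells moved with depth, outside their interval in 27 of 36 cases at 2000 UMIs and 32 of 36 without thinning. No paired analysis was possible because each group has 1 library. Between 50 and 92 venular cells limit what counts of a few UMIs can show.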
